A study of Mus musculus with 18 samples.

Results

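The cytochromes P450 of the mouse kidney were examined in libraries from kidneys of mice whose right kidney had lost and regained its blood flow and of sham-treated mice. Of the 20825 genes in the deposited expression table, 96 carried a P450 symbol (Cyp, a family number and a subfamily letter). The selection left out 9 of these, namely Cyp24a1, Cyp27b1, Cyp4a10, Cyp4a14, Cyp4a12a, Cyp4a12b, Cyp2d9, Cyp2a4 and Cyp7b1. Of the remaining genes, 32 reached 1 FPKM (fragments scaled to transcript length and library size) in at least 3 of the 18 libraries and form the set described here. The other 55 stayed below that level, and 52 of them never reached 1 FPKM in any library. Among the 32, 20 were at 1 FPKM or more in all 18 libraries, and 2 entered through the libraries of 1 day. Cyp2c69 entered through the sham kidneys of day 21 and Cyp2b10 through day 1, where all 3 sham libraries and 1 UIR library reached the limit, so that their differences on those days follow from their choice. Cyp2r1 reached the limit in 6 libraries, all sham, and Cyp3a13 in 8, all UIR. The choice therefore favored the direction of these genes.

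The mice were C57BL/6 animals with a labelled age of 11 weeks. In the injured groups, called UIR in the labels, the vessels of the right kidney were clamped for 45 minutes and then released while the left kidney was left in place. Sham-treated mice of the same strain and age served as controls, and kidneys were taken 1, 3 or 21 days after surgery. This gave 6 groups of 3 libraries from bulk kidney tissue, labelled biological replicates. The labels name no allele in any group and no agent other than isoflurane anesthesia. The labels name neither the sex of the mice nor the side that was sequenced, and a UIR mouse keeps an intact left kidney.

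P450 enzymes hold a heme group and use electrons passed on by a reductase to insert an oxygen atom into a substrate. Those of the endoplasmic reticulum take electrons from the reductase encoded by Por, sometimes with cytochrome b5, and those of mitochondria take them from ferredoxin. In the kidney most of the drug-oxidizing and fatty-acid-oxidizing members are known as enzymes of the proximal tubule, whereas other members belong to the stroma or to blood-derived cells. Members of the CYP2J and CYP4 families turn arachidonic acid into epoxides and hydroxylated acids that act on renal vessels and salt transport.

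Libraries summed to 424207 to 549490 FPKM, and 14716 genes entered the tests. Each test compared group means of log2(FPKM + 1) with limma over all 18 libraries, and p-values were adjusted over all genes tested, with a threshold of 0.05. They measure the spread between these libraries. Folds are given on that log2 scale with ± the standard error, so they understate changes of genes near 1 FPKM. The sham kidneys of day 1 stood apart from the later sham kidneys: the summed level of 12 proximal tubule markers was 2523 to 3012 FPKM in them, against 7090 to 7405 at day 3 and 6698 to 8010 at day 21. In UIR kidneys the same sum was 1061 to 2805 at day 1, 244 to 395 at day 3 and 67.3 to 367 at day 21. At days 3 and 21 all 12 markers were lower in UIR kidneys, with median log2 folds of -4.29 and -5.27. At day 1 only 5 of the 12 passed the test, and all 5 were lower. Over all genes tested, 31.1%, 17.9% and 20.1% were lower and 28.5%, 57.6% and 60.7% higher at days 1, 3 and 21, beside which the marker counts stand. Over the same groups, 8 monocyte and macrophage markers summed to 48.7 to 79.7 FPKM in sham kidneys and to 67.3 to 89.6, 287 to 724 and 3047 to 4292 FPKM in UIR kidneys at days 1, 3 and 21. For 8 fibroblast and pericyte markers the sham sums were 32.8 to 67.6 FPKM, and the UIR sums 49.9 to 60.2, 135 to 438 and 1108 to 1244 FPKM. All 8 genes of each of these 2 lists were higher at days 3 and 21, with 6 of 8 fibroblast and pericyte markers passing at day 3 after median-of-ratios scaling or quantile normalization. In bulk tissue, fewer cells of a type and less RNA per cell cannot be told apart, and the part of these shifts in the P450 differences was not tested. The kidney identity of the tissue was visible in the proximal tubule sums of every sham group. A list of 8 liver markers summed to 38.8 to 144 FPKM in sham kidneys and to 14.6 to 31.4, 28.8 to 34.3 and 1.76 to 2.36 FPKM in UIR kidneys at days 1, 3 and 21. Of the 5 that entered the tests, 1 was higher and 3 lower at day 1, 3 higher and 1 lower at day 3 (median log2 fold 1.47), and none higher and 3 lower at day 21. Serpina3k and Mup3 of that list were at 0 in every sham library and in UIR libraries of days 1 and 21, while no marker of it was at 0 in all UIR libraries of day 3. The part of these liver transcripts in the day 3 values was not tested.

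The summed level of the 32 P450 transcripts was lower in UIR kidneys on each day. The sham sums were 5322 ± 399, 5409 ± 724 and 6095 ± 316 FPKM (SD, n = 3) on days 1, 3 and 21. UIR kidneys held 2151, 2048 and 1300 FPKM at day 1, 381, 380 and 368 at day 3, and 542, 562 and 355 at day 21. No UIR library reached the lowest sham library of its day. As a share of all FPKM, the members made up 1.09%, 1.03% and 1.24% in sham kidneys and 0.378%, 0.0871% and 0.113% in UIR kidneys at days 1, 3 and 21. Cyp4b1 and Cyp2e1 alone supplied 59.5% to 78.4% of the P450 sum in the sham groups and 73.7% in UIR kidneys of day 1, but 23.5% and 27.4% in UIR kidneys of days 3 and 21.

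**Figure D1:**
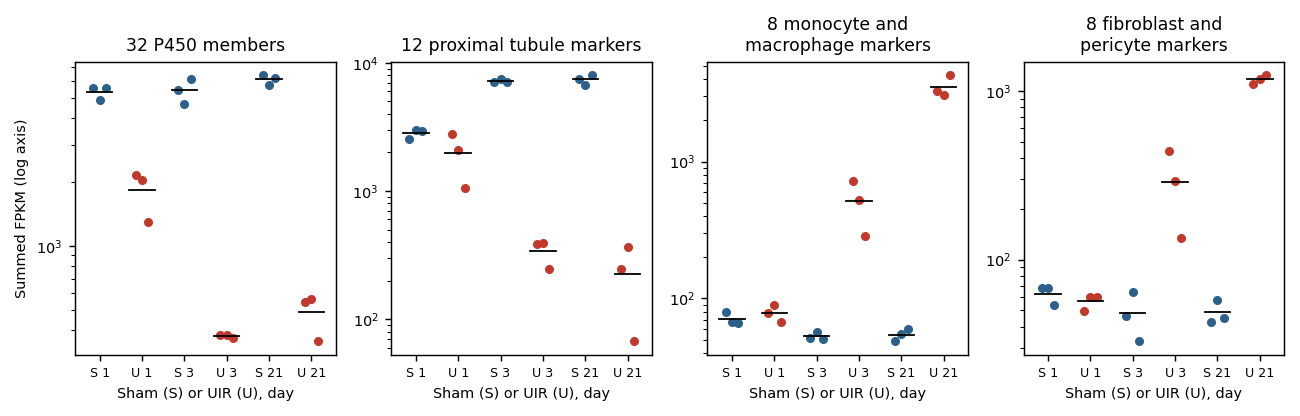
Summed FPKM (log axis) in each library of the 32 P450 transcripts and of 3 marker lists, for sham (S, blue) and UIR (U, red) kidneys at days 1, 3 and 21, with points as libraries and bars as group means. The P450 and proximal tubule sums are lowest in UIR kidneys at days 3 and 21, where the macrophage and fibroblast sums are highest.

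Member by member, P450 transcripts were lower in UIR kidneys more often than genes at large, and fewer were higher. At day 1, 16 of the 32 were lower and 3 higher, while over all genes tested 31.1% were lower and 28.5% higher. At day 3 the counts were 16 lower and 10 higher, beside 17.9% and 57.6% of all genes. By day 21 they were 17 lower and 11 higher, beside 20.1% and 60.7% of all genes. Without Cyp2b10 at day 1 and Cyp2c69 at day 21, which entered through those days, 15 of 31 and 16 of 31 were lower, beside 31.2% and 21.2% of all genes that reach the limit without that day's libraries. With or without these 2, the shares of members lower were above the background at each day and the shares higher below it. Cyp2r1 and Cyp3a13, which entered through sham and UIR libraries only, stay in these counts. So does Cyp2c69 among the 16 lower at day 3. No background for entry through 1 condition was taken. Changes of at least 2-fold were downward for 10, 14 and 13 members at days 1, 3 and 21, against 8.92%, 7.81% and 9.56% of all genes. The 10 include Cyp2b10 and the 13 include Cyp2c69, whose drops on those days follow from their choice. No background without those days was taken for changes of this size. Upward changes of that size were found for 1, 6 and 8 members, against 6.97%, 22.8% and 29.5% of all genes, and the 1 at day 1 was Cyp3a13. The median log2 fold of the members was -0.62, -0.41 and -0.38 at the 3 days, and that of all genes tested was -0.03, 0.44 and 0.53. Cyp2b10 and Cyp2c69 were kept in the medians of the members.

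The background itself depends on how libraries are scaled. Deposited FPKM put the median gene 0.44 (day 3) and 0.53 (day 21) log2 units higher in UIR kidneys. With 8470 genes higher and 2634 lower at day 3, and 8934 and 2951 at day 21, the deposited values leaned upward. After median-of-ratios scaling the splits were 5195 to 4939 and 5650 to 5424, with medians of 0.03 on both days. Quantile normalization gave 5100 to 4858 and 5431 to 5609, and rescaling to TPM, which gives every library the same total, gave 10003 to 1898 and 9833 to 2422. The members lower numbered 19 and 19 after median-of-ratios scaling and 20 and 21 after quantile normalization at days 3 and 21. Members higher numbered 8 and 10, and 8 and 8, under those 2 scalings. Each rise below is therefore also given relative to the median gene where it is near that shift.

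**Figure D2:**
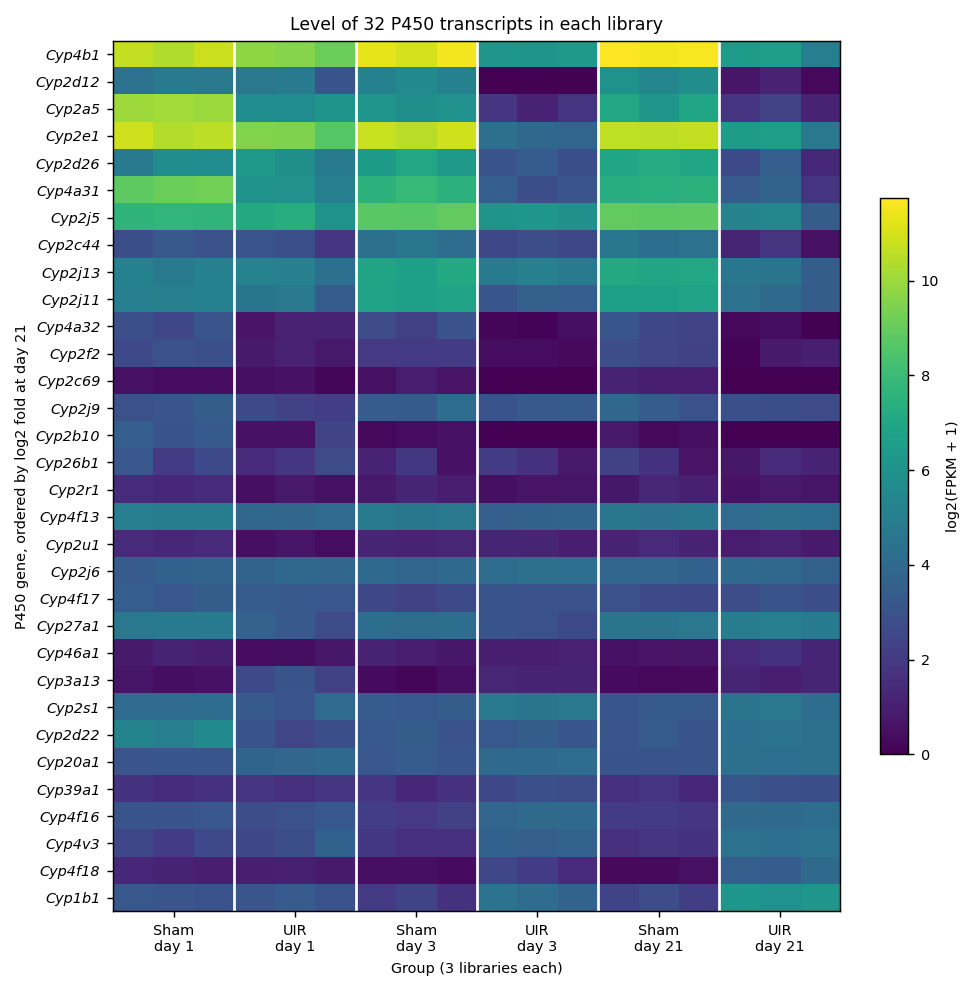
Level of each of the 32 P450 transcripts as log2(FPKM + 1) (color) in each of the 18 libraries (columns, grouped by treatment and day), with genes ordered by their log2 fold at day 21. Upper rows such as Cyp4b1 and Cyp2e1 are bright in sham libraries and dark in UIR libraries of days 3 and 21, and the lowest rows, Cyp4f18 and Cyp1b1, show the opposite.

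Drug-metabolizing members of the CYP2 and CYP3A families made up 10 of the 32, and most of the 10 were lower at days 3 and 21. At day 1, 5 of the 10 were lower and 1 higher (median log2 fold -0.94). At day 3, 7 were lower and 1 higher (median -1.71), and at day 21, 7 were lower and 2 higher (median -2.56). Without Cyp2b10 at day 1 and Cyp2c69 at day 21, 4 of 9 and 6 of 9 were lower, while the medians include both. The shares of all genes tested were 31.1%, 17.9% and 20.1% lower and 28.5%, 57.6% and 60.7% higher. Cyp2c69 is among the 7 lower at day 3. The 1 higher at days 1 and 3 was Cyp3a13, which entered through UIR libraries only. Their summed level was 2576 to 3027 FPKM in sham and 516 to 916 in UIR kidneys at day 1. By day 3 the UIR sum was 35.8 to 44.0 FPKM beside 1720 to 2137 in sham kidneys, and at day 21 it was 50.4 to 137 beside 1841 to 1959.

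Cyp2e1 (Entrez 13106), which oxidizes ethanol, acetone and acetaminophen, was among the most abundant P450 transcripts of sham kidneys. Sham kidneys had 1881, 1345 and 1546 FPKM at day 1, 1725, 1453 and 1933 at day 3, and 1566, 1545 and 1626 at day 21. In UIR kidneys it was 736, 718 and 395 FPKM at day 1, 19.4, 14.4 and 13.1 at day 3, and 88.2, 94.6 and 25.2 at day 21. All UIR libraries lay below all sham libraries of their day, and day 3 was the lowest point. The log2 fold was -1.41 ± 0.37 (adjusted p = 0.0036) at day 1, -6.69 ± 0.37 (adjusted p = 2e-10) at day 3 and -4.70 ± 0.37 (adjusted p = 6.5e-09) at day 21. The level in UIR kidneys was 38.8%, 0.917% and 4.39% of the sham mean of the same day. Between days 3 and 21 the difference from sham shrank by 1.99 ± 0.52 (adjusted p = 0.0056), with Cyp2e1 moving back toward sham.

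Cyp2a5 (Entrez 13087), a coumarin hydroxylase whose reads can be shared with its near copy Cyp2a4, was most abundant in the sham kidneys of day 1. The sham libraries gave 1037, 1096 and 1019 FPKM at day 1, 71.5, 56.7 and 60.2 at day 3, and 132, 73.6 and 122 at day 21. The UIR libraries gave 51.9, 50.8 and 66.9 FPKM at day 1, 2.58, 1.19 and 2.56 at day 3, and 2.38, 4.37 and 1.2 at day 21. Sham levels at day 1 were thus far above those of later sham kidneys, with a log2 difference of -4.05 ± 0.28 (adjusted p = 3.9e-08) between sham days 3 and 1. Against same-day sham the fold was -4.20 ± 0.28 (adjusted p = 5.6e-09), -4.39 ± 0.28 (adjusted p = 9.2e-10) and -4.97 ± 0.28 (adjusted p = 1.5e-10) at days 1, 3 and 21. UIR kidneys of day 1 overlapped in level with sham kidneys of day 3, and set against the sham kidneys of days 3 and 21 together the day 1 fold was -0.53 ± 0.24 (adjusted p = 0.058). So the day 1 loss of Cyp2a5 passed the test against one control and not against the other.

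The CYP2D family oxidizes many drugs, and its 3 members here moved differently, although reads of such paralogs may be split between them. Cyp2d12 (Entrez 380997) was at 20.4, 27.3 and 24.7 FPKM at day 1, 34.4, 46.4 and 34.6 at day 3, and 65.4, 41.6 and 54.5 at day 21 in sham kidneys. It was at 24.6, 26.6 and 7.19 FPKM at day 1, 0, 0.05 and 0.04 at day 3, and 0.63, 1.22 and 0.19 at day 21 in UIR kidneys, so it held the level of same-day sham in 2 of 3 libraries on day 1 and was at most 0.05 FPKM on day 3. Its fold was -0.47 ± 0.35 (adjusted p = 0.25) at day 1, -5.25 ± 0.35 (adjusted p = 1.6e-09) at day 3 and -5.05 ± 0.35 (adjusted p = 1.4e-09) at day 21, and the change from day 1 to day 3 was itself -4.77 ± 0.49 (adjusted p = 7.7e-07). Against the sham kidneys of days 3 and 21 together, the day 1 fold of Cyp2d12 was -1.35 (adjusted p = 0.00074). Cyp2d26 (Entrez 76279) gave 28.9, 53.2 and 51.9 FPKM at day 1, 84.2, 126 and 81.0 at day 3, and 123, 147 and 123 at day 21 in sham kidneys. In UIR kidneys it gave 81.8, 57.4 and 28.2 FPKM at day 1, 7.23, 9.6 and 5.99 at day 3, and 5.17, 10.7 and 1.5 at day 21, with overlapping groups at day 1 and none at the later days. The folds of Cyp2d26 were 0.24 ± 0.45 (adjusted p = 0.67), -3.50 ± 0.45 (adjusted p = 2.8e-06) and -4.54 ± 0.45 (adjusted p = 1e-07). Against the later sham kidneys its day 1 fold was -1.11 (adjusted p = 0.018).

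Cyp2d22 (Entrez 56448) took another course from its 2 neighbors in the family. Sham kidneys started high, with 37.3, 31.6 and 47.0 FPKM at day 1, 8.46, 10.2 and 7.1 at day 3, and 7.54, 9.37 and 7.26 at day 21. UIR kidneys had 7.3, 4.56 and 6.1 FPKM at day 1, 8.34, 9.99 and 7.89 at day 3, and 18.4, 21.4 and 19.5 at day 21, so the injured group was below sham at day 1, among it at day 3 and above it at day 21. The log2 fold was -2.50 ± 0.17 (adjusted p = 5.8e-09) at day 1 and 1.2 ± 0.17 (adjusted p = 4.8e-06) at day 21. At day 3 it was 0.03 ± 0.17 (adjusted p = 0.87) as deposited and turned to -0.45 (adjusted p = 0.028) after median-of-ratios scaling and -0.51 (adjusted p = 0.013) after quantile normalization. At day 21 it stood 0.67 above the median gene. Its effect differed between days 1 and 3 by 2.54 ± 0.23 (adjusted p = 2.6e-07) and between days 3 and 21 by 1.17 ± 0.23 (adjusted p = 0.00078). The sham level itself moved by -2.04 ± 0.17 (adjusted p = 2.1e-07) from day 1 to day 3, while the UIR level moved by 0.49 ± 0.17 (adjusted p = 0.015).

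Lesser members of this group also fell. Cyp2c44 (Entrez 226143), an arachidonic acid epoxygenase of the kidney, gave 5.98, 8.68 and 7.16 FPKM at day 1, 18.9, 23.8 and 17.2 at day 3, and 23.8, 17.9 and 20.6 at day 21 in sham kidneys. It gave 7.44, 6.3 and 2.67 FPKM at day 1, 4.83, 5.84 and 4.77 at day 3, and 1.35, 2.42 and 0.42 at day 21 in UIR kidneys, overlapping sham at day 1 and lying below it afterwards. The fold of Cyp2c44 was -0.43 ± 0.30 (adjusted p = 0.23), -1.76 ± 0.30 (adjusted p = 5.1e-05) and -3.26 ± 0.30 (adjusted p = 3.7e-08), and between days 3 and 21 the difference from sham moved by -1.50 ± 0.42 (adjusted p = 0.0082), further down. Against the sham kidneys of days 3 and 21 together, its day 1 fold was -1.80 (adjusted p = 9.9e-06). Cyp2f2 (Entrez 13107), known for naphthalene oxidation in the airway, gave 5.08, 6.59 and 6.4 FPKM at day 1, 2.85, 3 and 3.3 at day 3, and 5.88, 4.57 and 3.91 at day 21 in sham and 0.8, 1.13 and 0.76 FPKM at day 1, 0.29, 0.32 and 0.24 at day 3, and 0.07, 0.83 and 1 at day 21 in UIR kidneys. Its groups did not overlap on any day, with folds of -1.89 ± 0.19 (adjusted p = 4.2e-07), -1.66 ± 0.19 (adjusted p = 7.2e-07) and -1.86 ± 0.19 (adjusted p = 1.3e-07).

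Cyp2b10 (Entrez 13088), a target of the nuclear receptor CAR that responds to phenobarbital, was present mainly in sham kidneys of day 1. Sham libraries gave 10.6, 7.23 and 9.03 FPKM at day 1, 0.2, 0.32 and 0.46 at day 3, and 0.77, 0.21 and 0.39 at day 21. UIR libraries gave 0.48, 0.49 and 4.24 FPKM at day 1, 0, 0 and 0 at day 3, and 0, 0.03 and 0 at day 21, and the third replicate of day 1 stood above the other two. Its fold at day 1 was -2.12 ± 0.34 (adjusted p = 5.1e-05) against same-day sham, a difference that its entry through that day had fixed, whereas against the sham kidneys of days 3 and 21 it had the opposite sign, 0.71 ± 0.29 (adjusted p = 0.037). At day 3 it was listed at 0 in all UIR libraries and no fold is given.

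The single CYP3A member, Cyp3a13 (Entrez 13113), a steroid and drug hydroxylase, was higher in UIR kidneys on each day. Sham libraries gave 0.58, 0.34 and 0.5 FPKM at day 1, 0.26, 0.16 and 0.39 at day 3, and 0.26, 0.2 and 0.23 at day 21. UIR libraries gave 5.26, 7.21 and 3.99 FPKM at day 1, 1.42, 1.2 and 1.22 at day 3, and 1.32, 0.99 and 1.29 at day 21. Every UIR library exceeded every sham library of its day, and day 1 was the peak. Cyp3a13 reached 1 FPKM in UIR libraries only, so its choice as a member favored this direction. The log2 fold was 2.11 ± 0.14 (adjusted p = 6.8e-09) at day 1, the largest rise of any member on that day, then 0.85 ± 0.14 (adjusted p = 5e-05) and 0.84 ± 0.14 (adjusted p = 4.6e-05). Relative to the median gene the 2 later values were 0.41 and 0.30, and at day 21 quantile normalization left 0.02 (adjusted p = 0.88). The decline of the effect from day 1 to day 3, -1.26 ± 0.20 (adjusted p = 5.6e-05), passed the test.

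Upstream sequence is shown for 3 members of this group that were lost and for Cyp4b1, the other abundant loss, beside Cyp1b1 and Cyp20a1, which rose. Each line gives the 150 bases before the RefSeq start site of the GRCm38.p6 assembly, 5′ to 3′ on the gene's strand, with capitals marking the motifs searched: CAAAGTCCA for HNF4A, GCGTG for the aryl hydrocarbon receptor, TTATGTAA for the D box factors and TATAAA for the general promoter element, each on both strands. Marked matches do not overlap one another.
Cyp2e1, chr7:140763669-140763818, plus strand: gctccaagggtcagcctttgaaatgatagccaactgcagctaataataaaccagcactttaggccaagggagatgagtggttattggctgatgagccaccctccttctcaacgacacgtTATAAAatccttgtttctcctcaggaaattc
Cyp2a5, chr7:26835189-26835338, plus strand: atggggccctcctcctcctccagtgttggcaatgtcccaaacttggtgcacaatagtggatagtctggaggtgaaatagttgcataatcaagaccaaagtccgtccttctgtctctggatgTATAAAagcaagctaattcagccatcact
Cyp2d26, chr15:82794246-82794395, minus strand: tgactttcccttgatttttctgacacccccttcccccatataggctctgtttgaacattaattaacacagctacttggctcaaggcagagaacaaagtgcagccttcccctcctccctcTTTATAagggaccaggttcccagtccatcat
Cyp4b1, chr4:115647722-115647871, minus strand: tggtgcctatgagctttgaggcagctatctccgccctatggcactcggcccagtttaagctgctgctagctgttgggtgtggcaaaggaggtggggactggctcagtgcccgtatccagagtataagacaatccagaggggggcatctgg
Cyp1b1, chr17:79715062-79715211, minus strand: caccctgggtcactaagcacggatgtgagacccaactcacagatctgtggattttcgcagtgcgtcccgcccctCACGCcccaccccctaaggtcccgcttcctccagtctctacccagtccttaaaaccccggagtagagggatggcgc
Cyp20a1, chr1:60343150-60343299, plus strand: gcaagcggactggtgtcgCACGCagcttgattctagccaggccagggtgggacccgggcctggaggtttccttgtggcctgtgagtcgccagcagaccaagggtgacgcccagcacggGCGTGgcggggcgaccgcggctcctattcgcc

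The windows of Cyp2e1, Cyp2a5 and Cyp2d26 hold a TATAAA, first base at -31, -29 and -31 from the start site, the last of these on the other strand. Cyp4b1 holds none of these letters in its window. GCGTG stands on the other strand at -76 in Cyp1b1 and at -132 in Cyp20a1, with a further copy at -32 in Cyp20a1. Over 250 bases before the start, 25 of the 32 members had an entry, and TATAAA was found in 6 of them (24.0%) against 14.3% of 27025 genes. GCGTG was found in 8 members (32%) against 30.9%, CAAAGTCCA in 1 (4.0%) against 0.451%, and TTATGTAA in 0 against 0.977%. The members with GCGTG were Cyp1b1, Cyp20a1, Cyp2b10, Cyp2j13, Cyp2j9, Cyp46a1, Cyp4f16 and Cyp4v3, which moved in both directions. Cyp2s1, Cyp3a13 and Cyp4f18, which rose, had an entry without it. TATAAA was absent from the entries of Cyp2f2, Cyp2j11, Cyp2r1 and Cyp4f13, which fell. The windows printed were picked and do not divide losses from rises. Such matches describe letters in a window and not bound sites.

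**Figure D3:**
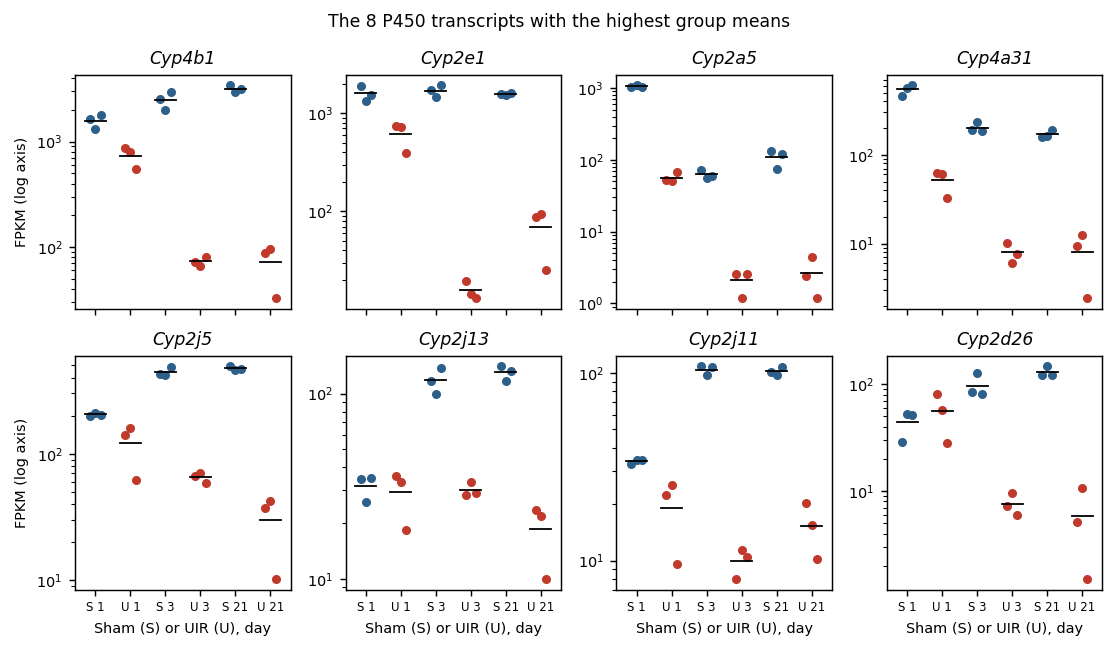
FPKM (log axis) in each library of the 8 P450 transcripts with the highest group means, for sham (S, blue) and UIR (U, red) kidneys at days 1, 3 and 21, with bars at group means. In UIR kidneys all 8 are below same-day sham at days 3 and 21, and Cyp2a5 also drops between sham kidneys of days 1 and 3.

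The CYP2J family, whose members epoxidize arachidonic acid, supplied 5 transcripts in 1 run of genes on chromosome 4. At day 1, 2 of the 5 were lower and 3 did not pass the test. By day 3, 3 were lower and 1 higher (median log2 fold -1.92), and at day 21, 4 were lower and 1 did not pass (median -2.71). Of all genes tested, 31.1%, 17.9% and 20.1% were lower and 28.5%, 57.6% and 60.7% higher on the 3 days. Their summed level in sham kidneys was 283 to 296 FPKM at day 1, 635 to 762 at day 3 and 697 to 760 at day 21. In UIR kidneys the sum was 108 to 236, 125 to 144 and 47.1 to 103 FPKM. Reads of these close relatives may be assigned to one another.

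Cyp2j5 (Entrez 13109), the main CYP2J epoxygenase of the proximal tubule, gave 200.1, 210.3 and 204 FPKM at day 1, 429.6, 417 and 485 at day 3, and 492, 459 and 469 at day 21 in sham kidneys. In UIR kidneys it gave 142, 159 and 62.2 FPKM at day 1, 67.2, 70.8 and 58.4 at day 3, and 37.3, 42.3 and 10.2 at day 21. The groups did not overlap on any day, and the lowest UIR library on each day was the third. The fold was -0.86 ± 0.39 (adjusted p = 0.067) at day 1, which missed the threshold but passed it without the second UIR library (adjusted p = 0.037), then -2.74 ± 0.39 (adjusted p = 9e-06) and -4.16 ± 0.39 (adjusted p = 5.5e-08). Against the sham kidneys of days 3 and 21 together, the day 1 fold was -2.02 (adjusted p = 5.3e-05). From day 3 to day 21 the difference from sham moved by -1.42 ± 0.55 (adjusted p = 0.046), further down.

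Cyp2j13 (Entrez 230459) gave 34.6, 26.1 and 34.9 FPKM at day 1, 117, 99.2 and 138 at day 3, and 140.3, 117 and 133 at day 21 in sham kidneys. It gave 36.0, 33.4 and 18.3 FPKM at day 1, 28.3, 33.5 and 28.9 at day 3, and 23.6, 21.9 and 9.95 at day 21 in UIR kidneys, overlapping sham on day 1 only. The folds of Cyp2j13 were -0.17 ± 0.27 (adjusted p = 0.62), -1.92 ± 0.27 (adjusted p = 8.2e-06) and -2.84 ± 0.27 (adjusted p = 6.9e-08). Its UIR mean was 29.2 FPKM at day 1 and 30.2 at day 3, while the sham mean went from 31.9 to 118 FPKM. Against the sham kidneys of days 3 and 21 together, its day 1 fold was -2.09 (adjusted p = 6.9e-07). Cyp2j11 (Entrez 100066) gave 32.6, 34.2 and 34.5 FPKM at day 1, 108, 97.0 and 107 at day 3, and 101, 97.7 and 108 at day 21 in sham and 22.5, 25.3 and 9.63 FPKM at day 1, 7.96, 11.3 and 10.5 at day 3, and 20.3, 15.5 and 10.2 at day 21 in UIR kidneys, with no overlap on any day. For Cyp2j11 the folds were -0.89 ± 0.27 (adjusted p = 0.0086), -3.28 ± 0.27 (adjusted p = 1.6e-08) and -2.71 ± 0.27 (adjusted p = 9.8e-08), and its UIR mean was 9.53% of sham at day 3. Fitted on the 2 groups of day 1 alone, its early fold had an adjusted p of 0.057. Both genes, like Cyp2j5, were lower in sham kidneys of day 1 than of day 3, by 1.85 ± 0.27 (adjusted p = 5.8e-05) for Cyp2j13, 1.59 ± 0.27 (adjusted p = 0.00019) for Cyp2j11 and 1.11 ± 0.39 (adjusted p = 0.031) for Cyp2j5 (day 3 minus day 1).

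The other 2 CYP2J transcripts were less abundant. Cyp2j6 lay between 9.45 and 19.2 FPKM in all 18 libraries. Its fold of 0.31 ± 0.11 (adjusted p = 0.019) at day 3 was below the median gene and turned to -0.19 after median-of-ratios scaling and -0.092 after quantile normalization, and its call was lost without the second UIR or the second sham library (adjusted p = 0.069 and 0.081). Cyp2j9 ranged from 3.58 to 16.8 FPKM and was lower at day 1 (-0.80 ± 0.24, adjusted p = 0.0091) and day 21 (-0.62 ± 0.24, adjusted p = 0.026), where the call was lost without the first sham library (adjusted p = 0.16) or the third UIR library (adjusted p = 0.074) and after rescaling to TPM (adjusted p = 0.1).

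Family 4 enzymes, which hydroxylate the end of fatty acid chains, and the related Cyp2u1 gave 9 members. They moved in both directions: 1 higher and 5 lower at day 1, 4 higher and 4 lower at day 3, and 3 higher and 5 lower at day 21. Among all genes tested, 28.5%, 57.6% and 60.7% were higher and 31.1%, 17.9% and 20.1% lower. Median log2 folds were -0.89, -0.06 and -0.28, the day 3 value turning to 0.13 after rescaling to TPM. The summed level was 1928 to 2466 FPKM in sham kidneys of day 1 and 624 to 972 in UIR kidneys. At day 3 it was 2269 to 3175 in sham and 122 to 139 in UIR kidneys, and at day 21 it was 3166 to 3645 and 115 to 179.

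Cyp4b1 (Entrez 13120), which oxidizes fatty acids and some lung and kidney toxins, was the most abundant P450 transcript in every sham library of days 3 and 21. Sham kidneys gave 1653, 1314 and 1796 FPKM at day 1, 2539, 1999 and 2945 at day 3, and 3442, 2963 and 3187 at day 21. UIR kidneys gave 873, 795 and 545 FPKM at day 1, 71.6, 66.1 and 80.8 at day 3, and 87.2, 94.6 and 32.7 at day 21. Each UIR group lay below its sham group without overlap, and its lowest library at day 21 was the third. The fold was -1.12 ± 0.30 (adjusted p = 0.0042), -5.07 ± 0.30 (adjusted p = 4.4e-10) and -5.60 ± 0.30 (adjusted p = 9.9e-11), which left 46.5%, 2.92% and 2.24% of the sham mean. From UIR day 3 to UIR day 21 the level did not pass the test (-0.16 ± 0.30, adjusted p = 0.67).

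Cyp4a31 (Entrez 666168) and Cyp4a32 (Entrez 100040843) are fatty acid hydroxylases of the Cyp4a cluster that responds to the receptor PPAR alpha, and their reads may be shared with Cyp4a10. Cyp4a31 gave 463, 558 and 606 FPKM at day 1, 188, 232 and 185 at day 3, and 159.8, 164 and 189 at day 21 in sham kidneys. It gave 62.5, 60.9 and 32.5 FPKM at day 1, 10.3, 6.12 and 7.67 at day 3, and 9.49, 12.4 and 2.45 at day 21 in UIR kidneys, always below sham. Its folds were -3.41 ± 0.37 (adjusted p = 1.1e-06), -4.51 ± 0.37 (adjusted p = 1.8e-08) and -4.45 ± 0.37 (adjusted p = 1.3e-08). Cyp4a32 gave 6.19, 4.73 and 7.63 FPKM at day 1, 5.7, 3.61 and 6.92 at day 3, and 7.83, 4.59 and 4.34 at day 21 in sham and 0.56, 1.13 and 1.2 FPKM at day 1, 0.17, 0.08 and 0.41 at day 3, and 0.18, 0.35 and 0.05 at day 21 in UIR kidneys, again without overlap. Its folds were -1.87 ± 0.23 (adjusted p = 3.7e-06), -2.37 ± 0.23 (adjusted p = 1.1e-07) and -2.43 ± 0.23 (adjusted p = 5.4e-08), close to one another on all 3 days.

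Among the Cyp4f genes, which act on leukotrienes and long fatty acids, neighbors differed in direction. Cyp4f13 (Entrez 170716) gave 31.6, 30.4 and 30.4 FPKM at day 1, 26.9, 23.5 and 25.1 at day 3, and 23.2, 21.1 and 23.1 at day 21 in sham and 13.5, 13.7 and 16.0 FPKM at day 1, 10.8, 11.7 and 12.8 at day 3, and 16.3, 19.3 and 17.8 at day 21 in UIR kidneys, lower on all days without overlap. The folds of Cyp4f13 were -1.05 ± 0.09 (adjusted p = 6e-08), -1.04 ± 0.09 (adjusted p = 2.3e-08) and -0.32 ± 0.09 (adjusted p = 0.0028), and its loss shrank from day 3 to day 21 by 0.71 ± 0.12 (adjusted p = 0.00023). After rescaling to TPM the day 21 fold of Cyp4f13 was -0.14 (adjusted p = 0.17). Cyp4f16 (Entrez 70101) gave 7.35, 7.26 and 8.06 FPKM at day 1, 3.41, 2.87 and 3.67 at day 3, and 3.22, 3.06 and 2.63 at day 21 in sham and 5.96, 6.57 and 8.26 FPKM at day 1, 13.1, 15.9 and 15.3 at day 3, and 15.7, 15.9 and 18.1 at day 21 in UIR kidneys. It overlapped sham at day 1 (-0.12 ± 0.11, adjusted p = 0.39) and lay far above it at day 3 (1.87 ± 0.11, adjusted p = 6e-10) and day 21 (2.14 ± 0.11, adjusted p = 9.2e-11).

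Cyp4f18 (Entrez 72054), the leukotriene B4 hydroxylase of mouse neutrophils, had the largest proportional rise by day 21. Sham kidneys gave 1.56, 1.2 and 1 FPKM at day 1, 0.38, 0.4 and 0.28 at day 3, and 0.23, 0.23 and 0.42 at day 21. UIR kidneys gave 1.01, 1.04 and 0.79 FPKM at day 1, 4.58, 3.16 and 1.6 at day 3, and 10.9, 9.79 and 15.6 at day 21. It was low and overlapping at day 1, above sham in each library at day 3 and higher again at day 21. The fold was -0.21 ± 0.21 (adjusted p = 0.42), 1.54 ± 0.21 (adjusted p = 6.7e-06) and 3.32 ± 0.21 (adjusted p = 6.4e-10), and the rise of the effect from day 3 to day 21 was 1.78 ± 0.30 (adjusted p = 0.00019). The UIR mean was 881% of sham at day 3 and 4125% at day 21. Within UIR kidneys of day 3 it was lowest in the third library, at 1.6 FPKM. The 8 monocyte and macrophage markers rose over the same days as given above, and their part in it was not tested.

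Cyp4v3 (Entrez 102294), a fatty acid hydroxylase whose human counterpart is mutated in a crystalline retinal dystrophy, gave 4.77, 3.18 and 5.1 FPKM at day 1, 2.78, 2.12 and 2.06 at day 3, and 2.04, 2.63 and 2.27 at day 21 in sham kidneys. UIR kidneys gave 4.74, 6.17 and 11.4 FPKM at day 1, 11.6, 10.9 and 12 at day 3, and 20.7, 18.7 and 21.1 at day 21, overlapping sham at day 1 and above it later. The fold was 0.60 ± 0.21 (adjusted p = 0.022), 1.92 ± 0.21 (adjusted p = 5e-07) and 2.68 ± 0.21 (adjusted p = 6.5e-09). The day 1 call rested on the third UIR library and was lost without it (0.28, adjusted p = 0.13). It was also lost without the second sham library (adjusted p = 0.11), when fitted on the 2 groups of day 1 alone (adjusted p = 0.14) and with library weights (0.36, adjusted p = 0.088). The remaining members of this group were Cyp4f17, between 3.91 and 10.3 FPKM, and Cyp2u1, between 0.32 and 1.73 FPKM. Cyp4f17 was higher at day 3 by 0.53 ± 0.12 (adjusted p = 0.00065) as deposited, only 0.09 above the median gene. That call was lost after median-of-ratios scaling (0.07, adjusted p = 0.61) and reversed to -0.089 (adjusted p = 0.52) after quantile normalization. Cyp2u1 was lower at day 1 (-0.89 ± 0.11, adjusted p = 4.3e-06) and at day 21 (-0.28 ± 0.11, adjusted p = 0.027), and the latter call was lost without the first UIR, the third UIR or the second sham library (adjusted p from 0.07 to 0.14), when fitted on the 2 groups alone (0.056) and after rescaling to TPM (0.17).

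**Figure D4:**
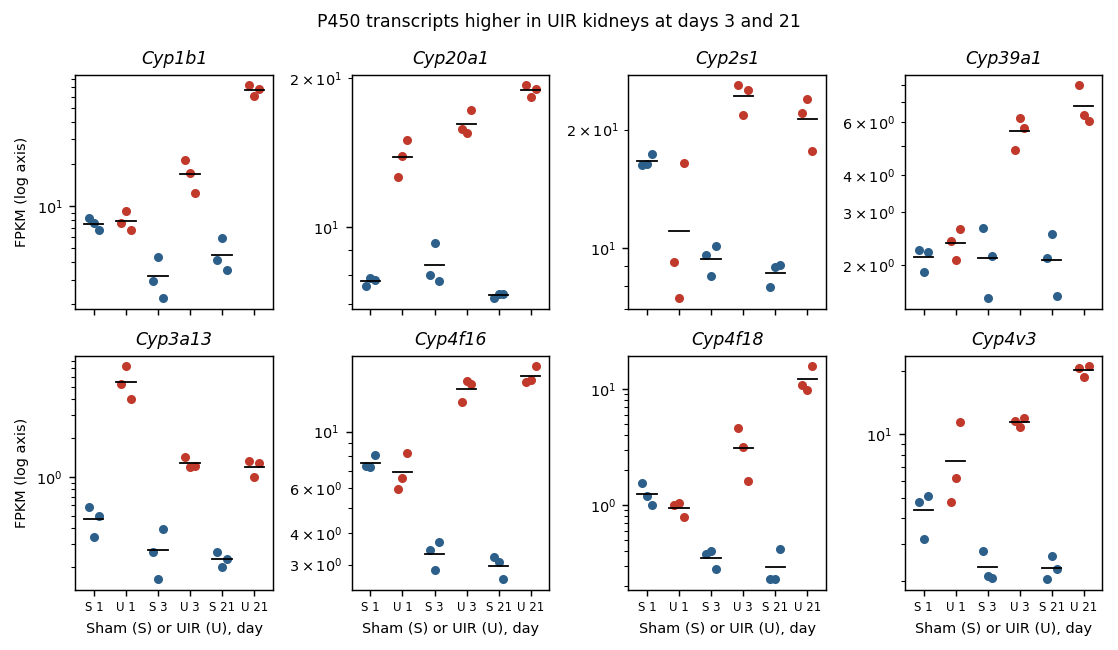
FPKM (log axis) in each library of the 8 P450 transcripts that were higher in UIR kidneys at both days 3 and 21, for sham (S, blue) and UIR (U, red) kidneys at days 1, 3 and 21, with bars at group means. Cyp1b1 and Cyp4f18 climb from day 3 to day 21, Cyp3a13 is highest at day 1, and every UIR point of days 3 and 21 is above the sham points of its day.

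Cyp1b1 and Cyp2s1 are both induced through the aryl hydrocarbon receptor, and neither is known mainly as a proximal tubule enzyme. Cyp1b1 (Entrez 13078), which oxidizes estrogens, retinoids and polycyclic hydrocarbons and is found in pericytes and other mesenchymal cells, gave 8.18, 7.63 and 6.73 FPKM at day 1, 2.95, 4.37 and 2.22 at day 3, and 4.11, 5.95 and 3.49 at day 21 in sham kidneys. In UIR kidneys it gave 7.53, 9.24 and 6.78 FPKM at day 1, 21.1, 17.2 and 12.4 at day 3, and 72.6, 60.7 and 68.0 at day 21. The groups overlapped at day 1 and were fully apart at days 3 and 21. Its fold was 0.05 ± 0.20 (adjusted p = 0.85), 2.10 ± 0.20 (adjusted p = 1.2e-07) and 3.65 ± 0.20 (adjusted p = 1.5e-10), and the effect grew from day 3 to day 21 by 1.54 ± 0.29 (adjusted p = 0.00045). Relative to the median gene the last 2 folds were 1.67 and 3.12. Cyp1b1 supplied 0.0747% of the P450 sum in sham kidneys of day 21 and 14.5% in UIR kidneys, where it was the most abundant member of the third library. The fibroblast and pericyte markers rose at the same days as given above, and their part in the rise was not tested.

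Cyp2s1 (Entrez 74134), an epithelial P450 found mainly outside the liver, changed sign. Sham kidneys gave 16.2, 16.3 and 17.4 FPKM at day 1, 9.59, 8.46 and 10.1 at day 3, and 7.97, 8.93 and 9.04 at day 21, and UIR kidneys 9.18, 7.45 and 16.4 FPKM at day 1, 26.0, 21.9 and 25.2 at day 3, and 22.1, 24.0 and 17.6 at day 21. On day 1, 2 UIR libraries were below sham and the third lay among it. At days 3 and 21 all UIR libraries were above sham. The fold was -0.62 ± 0.19 (adjusted p = 0.0095), 1.29 ± 0.19 (adjusted p = 1.2e-05) and 1.2 ± 0.19 (adjusted p = 2.2e-05), and the day 3 effect exceeded that of day 1 by 1.91 ± 0.27 (adjusted p = 1.7e-05). Without the second UIR library of day 1 the early loss had an adjusted p of 0.064, fitted on the 2 groups of day 1 alone it had 0.081, and against the sham kidneys of days 3 and 21 it was 0.20 ± 0.16 (adjusted p = 0.29) in the other direction. Its sham level moved by -0.77 ± 0.19 (adjusted p = 0.0039) from day 1 to day 3.

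Enzymes of sterols, bile acids and vitamin D gave 4 members. At day 1, 3 of them were lower, at day 3, 2 were lower and 1 higher, and at day 21, 1 was lower and 3 higher. Beside these stand 31.1%, 17.9% and 20.1% of all genes lower and 28.5%, 57.6% and 60.7% higher. The day 21 counts are near those shares and describe no turn of this group. Median log2 folds were -0.62, -0.16 and 0.60, and after quantile normalization 1 was higher and 1 lower at day 21. Cyp27a1 (Entrez 104086), the mitochondrial sterol side-chain hydroxylase, gave 25.2, 27.8 and 28.9 FPKM at day 1, 18.2, 16.6 and 17.8 at day 3, and 21.6, 21.7 and 24.1 at day 21 in sham kidneys. It gave 12, 8.62 and 5.65 FPKM at day 1, 7.26, 6.42 and 5.06 at day 3, and 29.8, 31.9 and 28.7 at day 21 in UIR kidneys, below sham at days 1 and 3 and above it at day 21, without overlap on any day. The fold was -1.59 ± 0.17 (adjusted p = 1.1e-06) and -1.37 ± 0.17 (adjusted p = 2.4e-06) at days 1 and 3. Between days 3 and 21 the effect moved by 1.77 ± 0.24 (adjusted p = 3.1e-05), and UIR kidneys of day 21 exceeded those of day 3 by 2.11 ± 0.17 (adjusted p = 5.6e-08). The day 21 fold itself, 0.41 ± 0.17 (adjusted p = 0.04), was below the median gene and turned to -0.19 (adjusted p = 0.36) after median-of-ratios scaling, so its place above sham depends on scaling. It had an adjusted p of 0.36 after quantile normalization (0.17) and 0.053 with a pseudocount of 0.1 FPKM or no filter on low values, and without any one of 5 of the 6 libraries of that day the adjusted p was 0.053 to 0.1.

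Cyp39a1 (Entrez 56050), an oxysterol hydroxylase of bile acid synthesis, rose instead. Sham kidneys gave 2.25, 1.9 and 2.21 FPKM at day 1, 2.65, 1.55 and 2.15 at day 3, and 2.11, 2.53 and 1.57 at day 21. UIR kidneys gave 2.4, 2.08 and 2.63 FPKM at day 1, 4.85, 6.19 and 5.75 at day 3, and 7.98, 6.34 and 6.04 at day 21, with 2 of 3 libraries just above the sham range at day 1 and all above it later. Folds were 0.11 ± 0.15 (adjusted p = 0.54), 1.09 ± 0.15 (adjusted p = 4.5e-06) and 1.35 ± 0.15 (adjusted p = 3e-07), the last 2 being 0.65 and 0.82 above the median gene. Cyp46a1, the cholesterol hydroxylase known from neurons, and Cyp2r1, the microsomal vitamin D hydroxylase, stayed between 0.33 and 2.29 FPKM. Cyp46a1 went from -0.46 ± 0.13 (adjusted p = 0.0081) at day 1 to 0.80 ± 0.13 (adjusted p = 4.4e-05) at day 21, the latter 0.27 above the median gene and turning to -0.083 after quantile normalization. Cyp2r1 was lower on all 3 days, with folds of -0.78 ± 0.13 (adjusted p = 0.00012), -0.38 ± 0.13 (adjusted p = 0.017) and -0.34 ± 0.13 (adjusted p = 0.028) and overlapping groups at day 21. Cyp2r1 reached 1 FPKM in sham libraries only, so its choice as a member favored this direction. Its day 3 call was lost without the first UIR or the second sham library (adjusted p = 0.061 and 0.1) and after rescaling to TPM (0.074). Its day 21 call was lost without any of 4 of the 6 libraries (adjusted p from 0.056 to 0.16), when fitted on the 2 groups alone (0.053), with library weights (0.071) and after rescaling to TPM (0.081).

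Cyp20a1 (Entrez 77951), a member with no settled substrate, was higher on all 3 days. Sham kidneys gave 7.6, 7.9 and 7.82 FPKM at day 1, 8.02, 9.28 and 7.8 at day 3, and 7.19, 7.33 and 7.33 at day 21. UIR kidneys gave 12.6, 13.9 and 15.0 FPKM at day 1, 15.8, 15.5 and 17.2 at day 3, and 19.4, 18.4 and 19.1 at day 21. Each UIR group lay above its sham group without overlap, and replicates differed little. The folds were 0.76 ± 0.08 (adjusted p = 6.1e-07), 0.88 ± 0.08 (adjusted p = 4.4e-08) and 1.27 ± 0.08 (adjusted p = 4.1e-10), of which the later 2 were 0.44 and 0.73 above the median gene. Cyp26b1, which clears retinoic acid, was the one member that did not pass the test on any day, ranging from 0.47 to 8 FPKM with wide scatter among replicates, although after quantile normalization its day 21 fold was -1.24 (adjusted p = 0.017). Cyp2c69, at most 1.16 FPKM, was listed at 0 in all UIR libraries of day 3 and gets no fold there.

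The effect of injury differed between days 1 and 3 for about the same share of members as of all genes, and between days 3 and 21 for a smaller share. From day 1 to day 3 it differed for 21 of the 32 members (65.6%), 10 downward and 11 upward, beside 62.9%, 12.7% and 50.1% of all genes tested. From day 3 to day 21 it differed for 11 (34.4%), of which 2 went downward (Cyp2c44 and Cyp2j5) and 9 upward, beside 46.2%, 20.2% and 26.1% of all genes. Within UIR kidneys, 14 members were lower and 12 higher at day 3 than at day 1 (17.1% and 49.4% of all genes). Between UIR days 3 and 21, 4 were lower and 9 higher (24% and 32.2% of all genes). Of the 16 members lower than sham at day 3, 3 were higher in UIR kidneys of day 21 than of day 3, namely Cyp27a1, Cyp2e1 and Cyp4f13. Another 3 were lower still, Cyp2c44, Cyp2j13 and Cyp2j5, and 10 did not pass the test. Over all 3 days the same 9 members were lower than sham (Cyp2a5, Cyp2e1, Cyp2f2, Cyp2j11, Cyp2r1, Cyp4a31, Cyp4a32, Cyp4b1 and Cyp4f13) and 3 were higher (Cyp20a1, Cyp3a13 and Cyp4v3, the last with the unstable day 1 call given above). Among these, Cyp2r1 entered through sham libraries only and Cyp3a13 through UIR libraries only, which favored their directions.

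UIR libraries differed in how often they held the lowest value of a member. How often each was lowest over all genes was not counted, so no trait particular to P450 transcripts is read from this. Among the 17 members lower at day 21, the third UIR library was the lowest in 13, the first in 3 and the second in none, with 1 tie. That library also had the lowest proximal tubule marker sum of its group, 67.3 FPKM beside 246 and 367. Among the 16 members lower at day 1, the third UIR library was lowest in 8, and its proximal tubule sum of 1061 FPKM was likewise the lowest. Whether the P450 and marker differences of these libraries have 1 source was not tested. At day 3 the lowest library was spread over the 3 replicates, with 5, 4 and 6 members and 1 tie. Leaving out any single library left 14 to 17 members lower at day 21, 15 to 16 at day 3 and 16 at day 1.

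Controls of day 1 bear on every early value. Between sham kidneys of days 1 and 3, 15 members fell and 5 rose, beside 29.7% and 12.8% of all genes. Without Cyp2b10 and Cyp2r1, which reach the limit in fewer than 3 libraries outside these groups, 13 of 30 fell. Without the first sham library of day 1 the 20 calls became 13. The 5 that rose were Cyp2c44, Cyp2j5, Cyp2j6, Cyp2j11 and Cyp2j13, all but Cyp2j6 of which later fell in UIR kidneys. Sham kidneys of days 3 and 21 differed in 0 of the 32 members by limma (0.034% of all genes), with 5 members (15.6%) at an unadjusted p under 0.05 beside 15.5% of all genes, and 3 members (9.38%) called when libraries were weighted by their quality beside 11.9% of all genes. Set against the sham kidneys of days 3 and 21 together, UIR kidneys of day 1 had 18 members lower and 8 higher, beside 32% and 39.6% of all genes. The 18 include Cyp2c69, whose difference (-0.44) follows from its entry through sham kidneys of day 21. Cyp2b10, among the 8, entered through day 1. Of the 16 members lower against same-day sham, 12 were also lower against the later sham kidneys, 3 did not pass (Cyp2a5, Cyp2s1 and Cyp46a1) and 1, Cyp2b10, was higher. Lower against the later sham kidneys only were Cyp2c44 (-1.80), Cyp2d12 (-1.35), Cyp2d26 (-1.11), Cyp2j5 (-2.02), Cyp2j13 (-2.09) and Cyp2c69. The 8 higher were Cyp1b1, Cyp20a1, Cyp2b10, Cyp3a13, Cyp4f16, Cyp4f17, Cyp4f18 and Cyp4v3. Adipose markers summed to 6.16 to 9.87 FPKM in sham kidneys of day 1 and 0 to 0.3 in later sham kidneys, with Adipoq and Lep at 0 in the former, and their part was not tested.

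**Figure D5:**
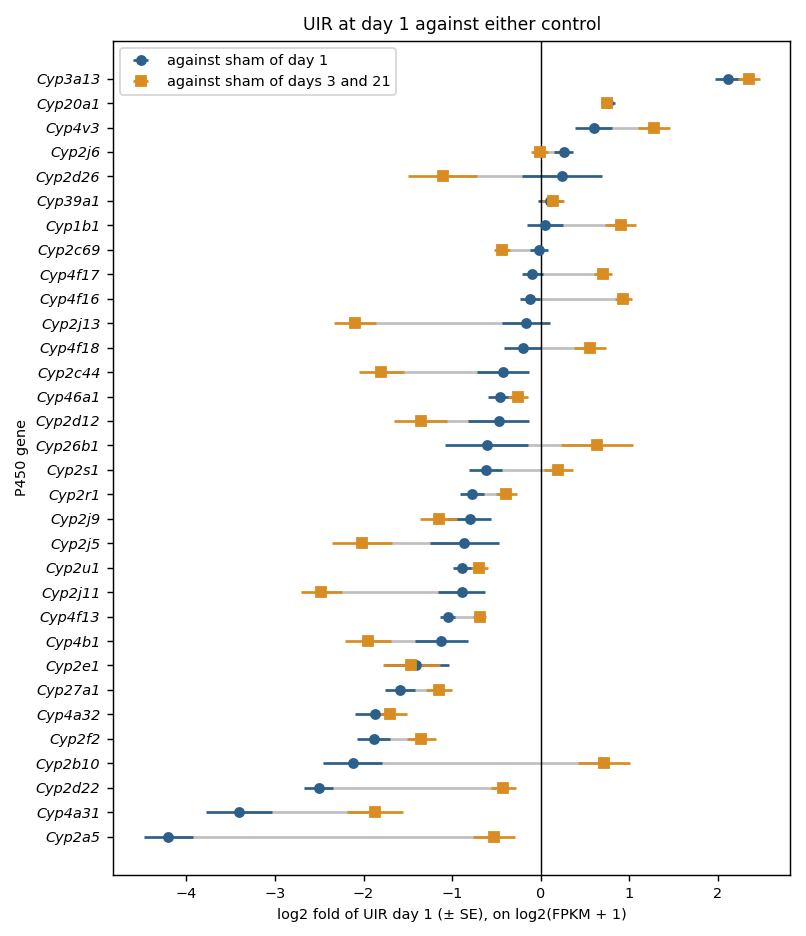
The log2 fold (± SE) of each P450 transcript in UIR kidneys of day 1 against sham kidneys of day 1 (blue circles) and against sham kidneys of days 3 and 21 together (orange squares), with genes ordered by the first. The pair of values lies farthest apart for Cyp2a5 (-4.20 and -0.53) and Cyp2b10 (-2.12 and 0.71), and Cyp3a13 is high by both (2.11 and 2.35).

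The proteins that supply P450 enzymes with electrons and heme were taken as companion lists. Of 9 electron donors and partners, 3 were lower and none higher at day 1, and 4 were lower and 2 higher at each later day. Of all genes tested, 31.1%, 17.9% and 20.1% were lower and 28.5%, 57.6% and 60.7% higher at days 1, 3 and 21. The count lower at day 1 was thus near the share of all genes. After median-of-ratios scaling 7 were lower and 1 higher on both later days. Cyb5a, cytochrome b5, fell on all days, with folds of -0.78 ± 0.15 (adjusted p = 0.00024), -3.02 ± 0.15 (adjusted p = 4.7e-11) and -2.75 ± 0.15 (adjusted p = 9.3e-11). Por, the reductase that serves all microsomal P450s, was at -0.04 ± 0.15 (adjusted p = 0.85), -1.27 ± 0.15 (adjusted p = 1.1e-06) and -2.03 ± 0.15 (adjusted p = 3e-09). Fdx1, the mitochondrial ferredoxin, was at -0.25 ± 0.13 (adjusted p = 0.13), -1.34 ± 0.13 (adjusted p = 1.9e-07) and -2.03 ± 0.13 (adjusted p = 9.5e-10), and its reductase Fdxr fell at day 1 (-1.09 ± 0.13, adjusted p = 2.2e-06). Cyb5r1, a cytochrome b5 reductase, was at -0.30 ± 0.12 (adjusted p = 0.046), 1.2 ± 0.12 (adjusted p = 2.5e-07) and 0.93 ± 0.12 (adjusted p = 3.2e-06). Cyb5r3, another such reductase, was at 0.53 ± 0.14 (adjusted p = 0.0021) on day 3 as deposited, near the median gene at 0.44. Its day 21 value, 0.32 ± 0.14 (adjusted p = 0.042), turned to -0.30 after median-of-ratios scaling.

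Heme synthesis genes were lower nearly throughout: 8 of 8 at day 1, 6 of 8 at day 3, and 7 of 8 with 1 higher at day 21. The shares of all genes lower were 31.1%, 17.9% and 20.1%. After rescaling to TPM, 4 were lower and 1 higher at day 3. Alas1, which sets the rate of heme synthesis, was at -1.55 ± 0.20 (adjusted p = 6.1e-06), -1.24 ± 0.20 (adjusted p = 3.3e-05) and -1.21 ± 0.20 (adjusted p = 3.3e-05), although against the later sham kidneys its day 1 value was -0.32 ± 0.17 (adjusted p = 0.11). Uros fell most at day 1 (-1.35 ± 0.10, adjusted p = 1.6e-08) after Alas1, and Cpox at day 21 (-2.22 ± 0.10, adjusted p = 1.6e-11), where Fech, the last enzyme of the path, was at -1.37 ± 0.12 (adjusted p = 1.8e-08). Ppox fell at day 1 (-1.10 ± 0.11, adjusted p = 5.6e-07), and its day 21 value of 0.51 ± 0.11 (adjusted p = 0.00051) turned to -0.077 after median-of-ratios scaling. Of 4 heme breakdown genes, 3 were lower at day 1, beside 31.1% of all genes. Hmox1, heme oxygenase, was at -0.97 ± 0.31 (adjusted p = 0.013) against same-day sham but at 3.07 ± 0.27 (adjusted p = 3.9e-08) against the later sham kidneys, and at 1.46 ± 0.31 (adjusted p = 0.00046) on day 3. Blvra and Blvrb, biliverdin reductases, were at -0.92 ± 0.08 (adjusted p = 7.5e-08) and -0.73 ± 0.20 (adjusted p = 0.0047) on day 1 and at -1.20 ± 0.08 (adjusted p = 7e-10) and 0.83 ± 0.20 (adjusted p = 0.0011) on day 21, where the median gene stood at 0.53. After median-of-ratios scaling, 0 of the 4 heme breakdown genes were higher and 2 were lower at day 21, so the rise of Blvrb depends on scaling. Hmox2 was at -0.27 ± 0.10 (adjusted p = 0.027) on day 3 as deposited and at 0.011 after rescaling to TPM.

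Ephx2, the soluble epoxide hydrolase that degrades the epoxides made by CYP2J and CYP2C enzymes, fell on all days, with folds of -2.75 ± 0.23 (adjusted p = 6e-08), -3.53 ± 0.23 (adjusted p = 1.2e-09) and -3.09 ± 0.23 (adjusted p = 3.2e-09). Ephx1, the microsomal hydrolase, fell at day 1 (-0.73 ± 0.14, adjusted p = 0.00042) and rose at day 3 (1.41 ± 0.14, adjusted p = 2.5e-07) and day 21 (1.83 ± 0.14, adjusted p = 7.3e-09). These were the 2 of 4 epoxide hydrolases that entered the tests.

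Of 18 tested nuclear receptors and other factors known to act on P450 genes, 12, 10 and 12 were lower and 3, 4 and 5 higher at days 1, 3 and 21. The shares of all genes tested were 31.1%, 17.9% and 20.1% lower and 28.5%, 57.6% and 60.7% higher. Hnf4a, a hepatocyte and proximal tubule factor, was at -2.28 ± 0.25 (adjusted p = 1.2e-06), -1.13 ± 0.25 (adjusted p = 0.00064) and -3.13 ± 0.25 (adjusted p = 7.5e-09). Hlf, which binds D boxes, was at -1.99 ± 0.21 (adjusted p = 7.3e-07), -3.27 ± 0.21 (adjusted p = 9.8e-10) and -3.20 ± 0.21 (adjusted p = 7.5e-10), and Dbp, of the same kind, was at -2.25 ± 0.61 (adjusted p = 0.0032) on day 3. Ppara, the receptor of the Cyp4a genes, was at -2.08 ± 0.19 (adjusted p = 7.1e-08) on day 3, and Nr1h4, the bile acid receptor, at -3.07 ± 0.26 (adjusted p = 1.7e-08) on day 21. Ahr, the receptor of Cyp1b1 and Cyp2s1, was at 0.26 ± 0.09 (adjusted p = 0.027), 1.17 ± 0.09 (adjusted p = 1.6e-08) and 1.42 ± 0.09 (adjusted p = 9.8e-10). Tiparp, a known target of that receptor, was at 2.24 ± 0.17 (adjusted p = 2.4e-08), -0.34 ± 0.17 (adjusted p = 0.084) and -0.41 ± 0.17 (adjusted p = 0.036). Cebpb rose at day 3 (1.33 ± 0.24, adjusted p = 0.00011) and day 21 (1.55 ± 0.24, adjusted p = 1.9e-05), Cebpa at day 21 (1.49 ± 0.21, adjusted p = 5.4e-06), and Nfe2l2 at day 1 (0.56 ± 0.11, adjusted p = 0.00033) and day 3 (0.98 ± 0.11, adjusted p = 5.2e-07).

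Retinoid genes were listed because Cyp26b1 and Cyp1b1 act on retinoids. Of 12 tested, 5 were higher and 4 lower at day 1, 10 and 2 at day 3, and 9 and 2 at day 21. Among all genes tested, 28.5%, 57.6% and 60.7% were higher and 31.1%, 17.9% and 20.1% lower on those days. With so few genes, no difference from these shares is claimed. The day 3 count was sensitive to scaling, with 5 higher and 2 lower after median-of-ratios scaling and 4 and 2 after quantile normalization. Aldh1a2, which makes retinoic acid, was at 3.62 ± 0.25 (adjusted p = 2.3e-09) and 4.18 ± 0.25 (adjusted p = 2.7e-10) on days 3 and 21, and Stra6, a retinol transporter, at 3.04 ± 0.29 (adjusted p = 1.1e-07) and 4.45 ± 0.29 (adjusted p = 7.9e-10). Rdh10, Aldh1a3 and Crabp2 were higher at day 1, at 1.63 ± 0.10 (adjusted p = 2.8e-09), 1.54 ± 0.15 (adjusted p = 4.5e-07) and 1.05 ± 0.16 (adjusted p = 4.4e-05). Rdh16 was lower on each day, at -1.71 ± 0.32 (adjusted p = 0.00027), -4.95 ± 0.32 (adjusted p = 1.3e-09) and -2.87 ± 0.32 (adjusted p = 4.7e-07). Dhrs3 was lower at day 1 (-2.68 ± 0.18, adjusted p = 6.7e-09) and day 3 (-1.34 ± 0.18, adjusted p = 4.5e-06), Aldh1a1 at day 1 (-1.38 ± 0.15, adjusted p = 1.5e-06), and Rdh10 at day 21 (-0.43 ± 0.10, adjusted p = 0.00092).

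Neighboring members did not always share a direction. In the gene order of the RefSeq GRCm38.p6 annotation, Cyp2s1, Cyp2b10, Cyp2a5 and Cyp2f2 stand in this order on chromosome 7, and at day 21 Cyp2s1 was higher while Cyp2a5 and Cyp2f2 were lower. On chromosome 15, Cyp2d22 was higher at day 21 and Cyp2d12 and Cyp2d26 lower. On chromosome 17, Cyp4f16 was higher and Cyp4f13, the next of the members, lower. The run of Cyp2j13, Cyp2j11, Cyp2j6, Cyp2j9 and Cyp2j5 on chromosome 4 held 4 members lower at day 21, and in the run of Cyp4a31, Cyp4a32 and Cyp4b1 on the same chromosome all 3 were lower.

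At the edge of the abundance limit, the members just inside were Cyp2c69, with 1.16, 1.01 and 1 FPKM in sham kidneys of day 21, and Cyp2b10, at 1 FPKM or more in 4 libraries. Just outside were Cyp3a11, Cyp2j8 at 1.06 FPKM and Cyp26a1 at 1.05 FPKM. Cyp3a11 gave 0.86, 0.9 and 1.41 FPKM in UIR kidneys of day 3 and at most 0.06 in any other library. Further below the limit, Cyp1a2, Cyp2a12 and Cyp2c50 were above 0 in every UIR library of day 3, at 0.19 FPKM or less, and at 0 elsewhere. No other gene below the limit had that pattern. Cyp8b1 was at 0.16, 0.22 and 0.17 FPKM in UIR kidneys of day 3 and higher, at 0.52, 0.52 and 0.51, in those of day 21. The liver markers of UIR kidneys of day 3 are given above, and their part in these values was not tested.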

How the data were processed

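RNA from mouse kidneys was sequenced in 18 libraries, 3 in each of 6 groups. The authors deposited 1 table of FPKM values per gene and library. Per the submitters' processing notes, which give no roles, the tools were RSEM 1.2.12, HISAT2 2.0.4 and Bowtie2 2.2.5, and the genome build was mm9. The table holds no counts, so the depth of each library is unknown and no counting interval is given. Genes with an FPKM of 1 or more in at least 3 of 18 libraries were kept (14716 of 20825). With limma 3.58.1 in R 4.3.3, log2(FPKM + 1) was fitted with 1 mean per group, a variance trend and 12 residual degrees of freedom. Tests were two-sided with Benjamini-Hochberg adjustment over all genes tested and a threshold of 0.05. An exact permutation of 3 against 3 libraries cannot go below 0.1. Members, gene lists and tests were chosen with earlier results of these data known. Values in every library are printed for members with a group mean of 20 FPKM or more and for the 6 largest changes in each direction per day, and of each companion list the 3 largest changes per direction and day, some of which are counted but not reported here by name. On simulated data with 200 changed genes among 14716, 2-fold changes were recovered in 85%, 89% and 89% of cases for days 1, 3 and 21, and 3.1% to 4.7% of calls were false. The simulation used independent noise around 1 mean per gene and no shift of the median gene. Its share of false calls therefore does not cover calls that depend on scaling. All 32 members matched RefSeq by Entrez ID. Xist was at 0.1 FPKM or less and Ddx3y at 9.18 FPKM or more in every library. No 2 libraries were identical. Alternatives were another pseudocount, filter, scaling, set of libraries, control or library weights, a replicate block, and leaving out each library.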

Additional observations from a re-analysis of the deposited data

Results flagged for a closer look

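The effect of injury, taken as UIR minus sham on the log2(FPKM + 1) scale, differed between days 1 and 3 for 21 of the 32 P450 transcripts (65.6%) by limma's test of that difference, beside 62.9% of all genes tested. Between days 3 and 21 it differed for 11 (34.4%), beside 46.2% of all genes. Cyp2s1 was lower in UIR kidneys at day 1 and higher at day 3, and the difference between the 2 effects was 1.91. Cyp27a1 was lower at day 3 and higher at day 21, with a difference of 1.77 between the effects, although its day 21 value alone depends on the scaling. The sham kidneys of days 1 and 3 also differed in Cyp2s1 (log2 difference -0.77) and Cyp27a1 (-0.61), and their part in these differences was not tested.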

How the results depend on the processing

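Depth is unknown, each group has 3 libraries, and sham kidneys of day 1 differ from later ones. Of 1553 gene values under the alternatives, 1447 kept direction and side of the threshold, 40 lost the call, 26 gained it and 40 reversed. Every other count of members stayed within 1.5 times, but members higher at day 1 numbered 8 against sham of days 3 and 21, sham days 3 and 21 differed in 3 with library weights, and sham days 1 and 3 in 13 without sham day 1 replicate 1. Leaving out single libraries gave 16 lower and 2 to 4 higher at day 1, 15 to 16 and 9 to 10 at day 3, 14 to 17 and 10 to 11 at day 21. It gave 20 to 22 and 9 to 13 differing effects, 13 to 19 and 0 sham differences, and 21 to 26 and 11 to 13 UIR differences. Replicate numbers did not pair the libraries (correlations -0.07 to 0.11), not every library correlated best with its own number, and with a replicate block 17 members were lower at day 1, Cyp2j5 among them (adjusted p = 0.042). Against sham of days 3 and 21, these day 1 folds reversed: Cyp2d26 -1.11, Cyp2s1 0.20, Cyp2b10 0.71, Cyp4f17 0.70, Cyp2j6 -0.013, Cyp26b1 0.63, Cyp4f16 0.93 and Cyp4f18 0.56. Cyp2c69 reversed at day 1 with quantile normalization (0.021) and weights (0.048). At day 3 median-of-ratios scaling reversed Cyp2d22 (-0.45), Cyp2j6 (-0.19) and Cyp46a1 (-0.19), quantile normalization Cyp2d22 (-0.51), Cyp4f17 (-0.089), Cyp2j6 (-0.092), Cyp26b1 (-0.29) and Cyp46a1 (-0.48), weights Cyp46a1 (-0.046) and TPM Cyp2u1 (0.13). At day 21 median-of-ratios scaling reversed Cyp27a1 (-0.19), Cyp4f17 (-0.34) and Cyp2j6 (-0.50), and quantile normalization Cyp4f17 (-0.62), Cyp2j6 (-0.45) and Cyp46a1 (-0.083). Without single libraries, day 1 folds ranged from -0.34 to 0.13 for Cyp2j13, -0.093 to 0.66 for Cyp2d26, -0.78 to 0.092 for Cyp2d12, -0.060 to 0.14 for Cyp1b1 and -0.089 to 0.076 for Cyp2c69. Day 3 folds ranged from -0.084 to 0.15 for Cyp2d22, -0.0025 to 0.67 for Cyp26b1, -0.10 to 0.013 for Cyp2u1 and -0.023 to 0.16 for Cyp46a1, and day 21 folds from -0.0043 to 0.19 for Cyp2j6. The cause of these reversals was not tested.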
